A study of Homo sapiens with 2 samples.

Results

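Death receptors and caspase-8 signalling were described by 10 listed genes, namely the ligand gene TNFSF10, the receptor genes TNFRSF10A, TNFRSF10B, FAS, TNFRSF1A and TNFRSF21, and FADD, RIPK1, CASP8 and CFLAR inside the cell. Members were taken by gene symbol from the platform annotation, and the brightest probe set by the mean over both arrays stood for each gene. Of the 10 genes, 9 had a probe set with that single symbol, out of 19775 genes in all, and RIPK1 was not analysed here. A gene was compared when its higher value reached a floor of 4.59, the median over non-control probe sets, which 8 of the members and 12841 of all genes reached.

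The cells were HCT15, an established human colorectal adenocarcinoma line, cultured in RPMI with fetal bovine serum. The knockout group was 1 array of HCT15 given Cas9 with a guide against ARID3B, labelled as an ARID3B knockout, and the control group was 1 array of cells that received a control. The sources used here do not say whether the edited cells were a clone or a pool, or what the control construct carried. Total RNA was measured once per group, so each difference describes 1 pair of arrays, no test was possible, and precision is limited by having 2 arrays.

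Death receptors are members of the TNF receptor superfamily that carry a cytoplasmic death domain. When FAS or a TRAIL receptor binds its ligand, the adaptor FADD is recruited and gathers procaspase-8 through death effector domains, and the caspase-8 dimers that form cleave downstream caspases and BID. The caspase-like protein cFLIP, encoded by CFLAR, competes at this step, while TNFR1, encoded by TNFRSF1A, first assembles a signalling complex with TRADD and RIPK1 that drives NF-kB. In colorectal epithelium TRAIL receptors and FAS are well known as routes by which immune cells and recombinant ligands kill tumour cells.

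Values are log2 expression values made by the authors with RMA, a method that sets the arrays to a common distribution, so that every difference is relative to the rest of the array. Differences are given as knockout-labelled minus control, and the spread quoted beside one is the scaled median absolute deviation of the differences of genes of similar mean expression, 0.255 to 0.437 across 10 bins. ARID3B itself was higher on the array labelled knockout, 6.09 against 5.12 in its single probe set, so the directions rest on labels that this transcript did not bear out. The 24 poly-A spike-in probe sets, called the spike-ins below, differed by a mean of -1.19. The 18 hybridisation control probe sets differed by a mean of -0.14. Scaling the arrays on the poly-A spike-ins would add 1.19 to every difference, so that all 8 compared members would lie above 0. A gene given below as lower would then stay below 0 only where its difference is under -1.19. The epithelial markers EPCAM (12.23 and 12.19 on the knockout-labelled and the control array) and KRT18 (12.37 and 12.35) were bright on both arrays. In the same list CDX2 differed by 0.64, CDH1 by -0.45 and KRT19 by 0.27, each beyond its spread (0.395, 0.255 and 0.255). KRT20 was under the floor on both arrays. Of 17 markers of leukocytes, fibroblasts and endothelium 15 had a probe set and 6 reached the floor. These 6 were CD14 (6.54 and 6.51), CD3D (5.17 and 5.03), CD3E (4.87 and 4.71), COL1A1 (7.12 and 6.87, with a second probe set at -2.47), DCN (4.61 and 4.51) and PECAM1 (5.73 and 5.55), and each differed by less than its spread in its brightest probe set. The other 9, PTPRC, COL3A1 and CDH5 among them, were under the floor on both arrays.

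The receptor genes TNFRSF1A and TNFRSF10B were the members with the largest differences, and both were higher on the knockout-labelled array. TNFRSF1A was 1.77-fold and TNFRSF10B 1.58-fold higher. The other 6 compared members were TNFRSF10A, FAS, TNFRSF21, FADD, CASP8 and CFLAR. In their brightest probe sets they differed by less than the spread at their level of expression, which 34.8% of all compared genes exceeded. At a 1.5-fold threshold 2 of 8 members were higher, against 5.83% of all compared genes, and none was lower, against 10.5%. No member reached a 2-fold difference in either direction, which 4.84% of the compared genes did, 1.05% upward and 3.79% downward. The median of the 8 members was 0.14 and that of all compared genes 0.04, and 5 of 8 lay above 0 against 52.9%. The array reads the RNA of the whole culture, so that a change in every cell and a change in the mix of cells cannot be told apart.

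**Figure D1:**
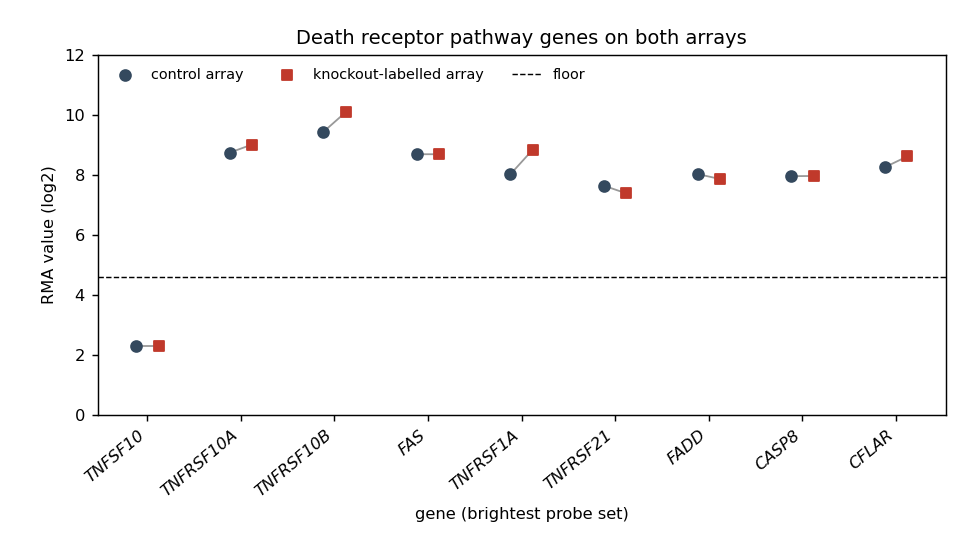
RMA values (log2) of the brightest probe set of 9 genes on the control array (circles) and the knockout-labelled array (squares), 1 array each, with the floor of 4.59 as a dashed line. TNFRSF1A and TNFRSF10B stand higher on the knockout-labelled array, TNFSF10 lies under the floor on both, and levels of different genes are not comparable on this axis.

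TNFSF10 encodes TRAIL, the ligand of both TRAIL receptors, and its transcript was not above the floor on either array. Its brightest probe set read 2.30 on both arrays. The other probe sets read 2.09 on the knockout-labelled array against 1.85 in the control, and 1.87 and 1.98. All 3 probe sets were thus under the floor of 4.59 on both arrays, where differences have no measured size, and TNFSF10 was not compared.

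The start regions of TNFSF10 and TNFRSF1A are shown because TNFSF10 was the only measured member under the floor and TNFRSF1A the member that differed most. Each is the 250 bases before the annotated start in RefSeq, assembly GRCh38.p14, read 5′ to 3′ on the gene's own strand, the minus strand in both cases. Capitals mark matches, on either strand, to 4 motifs: the GC box GGGCGG, the interferon response element (GAAA repeated after any 2 bases), the ATF4-CHOP composite element TGATGNAA and the TATA box TATAAA.
TNFSF10, chr3:172523431-172523680: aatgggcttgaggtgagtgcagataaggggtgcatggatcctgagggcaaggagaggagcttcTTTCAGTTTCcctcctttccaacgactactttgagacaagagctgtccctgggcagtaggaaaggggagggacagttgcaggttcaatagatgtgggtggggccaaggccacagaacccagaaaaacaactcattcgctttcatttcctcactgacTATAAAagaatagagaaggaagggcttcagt
TNFRSF1A, chr12:6342077-6342326: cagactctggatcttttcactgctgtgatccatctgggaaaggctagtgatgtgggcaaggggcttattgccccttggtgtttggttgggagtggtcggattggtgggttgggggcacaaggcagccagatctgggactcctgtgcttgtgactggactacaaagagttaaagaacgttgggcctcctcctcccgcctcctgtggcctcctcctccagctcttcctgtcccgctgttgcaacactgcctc

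The TNFSF10 window held 1 match to the interferon element, on the opposite strand at 187 to 178 bases before the start, and a TATA box at 31 to 26 bases before it. At any position and on either strand, the interferon element was found in 3.02% and the TATA box in 10.7% of 35097 such windows across the genome. The TNFRSF1A window held none of the 4 motifs, of which the GC box was in 42.6% and the ATF4-CHOP element in 3.15% of windows. Guanine and cytosine made up 49.6% of the TNFSF10 and 56.8% of the TNFRSF1A window, against a median of 58% over all windows. These are matches of letters and show no binding.

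TNFRSF1A on chromosome 12 encodes TNFR1, the main receptor of TNF on epithelial cells. Its only probe set read 8.84 on the knockout-labelled array against 8.01 in the control. The difference of 0.82 was 2.12 times the spread of 0.388 at that level, and 278 of the 12841 compared genes (2.16%) lay further upward. With a single probe set there was no second measurement of this transcript, and the mark s in its name means that its probes can match more than 1 transcript. When such marked probe sets were left out, TNFRSF1A had no value.

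TNFRSF10B on chromosome 8 encodes TRAIL receptor 2 (DR5). Its brightest probe set read 10.08 on the knockout-labelled array against 9.42 in the control, a difference of 0.66 that was 1.81 times the spread of 0.366. Of the compared genes, 4.19% lay further upward. The 2 further probe sets above the floor read 7.59 against 7.27 and 7.58 against 7.22. All 3 were thus higher on the knockout-labelled array, but the differences of 0.32 and 0.37 in the 2 further ones were within the spread. Both of these also carry a mark for probes that can match more than 1 transcript, which the brightest does not. Where a gene had at least 2 probe sets above the floor, all of them lay in 1 direction for 61.1% of such genes. A dim probe set under the floor differed by -0.11. As the mean of its 4 probe sets TNFRSF10B differed by 0.31, and with the arrays scaled on ribosomal protein genes by 0.57, and both lie under 1.5-fold (0.58 on the log2 scale).

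TNFRSF10A on chromosome 8 encodes TRAIL receptor 1 (DR4), the other receptor through which TRAIL kills. Its brightest probe set read 9.01 on the knockout-labelled array against 8.73 in the control, a difference of 0.27 against a spread of 0.388. Its other probe sets disagreed, with 8.33 against 8.46 (-0.12) and 7.22 against 7.20 (0.02). The gene was therefore near its control value, with a mean over its 3 probe sets of 0.05, and its difference was smaller than that of TNFRSF10B in every pairing of their probe sets above the floor.

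FAS on chromosome 10 encodes the receptor of FAS ligand. It read 8.68 on both arrays in its brightest probe set, a difference of -0.00118. Of the other 3 above the floor, the largest difference was 0.23, from 7.75 on the knockout-labelled array against 7.52 in the control, within the spread of 0.388, and the rest differed by -0.02 and -0.00365. FAS was thus the receptor gene closest to 0 in its brightest probe set.

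TNFRSF21 on chromosome 6 encodes death receptor 6. It read 7.38 on the knockout-labelled array against 7.63 in the control, a difference of -0.26 with a spread of 0.412. Its dimmer probe set differed by -0.46 (5.73 against 6.19), which is beyond that spread. Both were lower on the knockout-labelled array, and both would lie above 0 if the arrays were scaled on the spike-ins. Over the 5 receptor genes 3 differences lay above 0, against 52.9% of all compared genes. Their median of 0.27 was the brightest probe set of TNFRSF10A, whose other probe sets differed by -0.12 and 0.02.

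**Figure D2:**
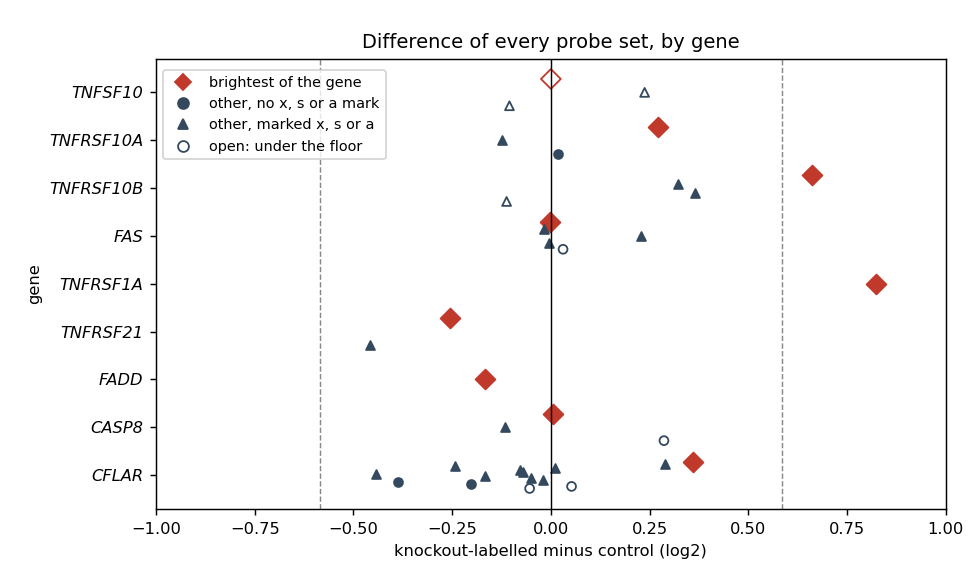
Difference of each of the 36 probe sets of 9 genes, knockout-labelled minus control array (log2), 1 array per group; diamonds are the brightest probe set of a gene, triangles others marked as able to match several transcripts, circles others, and open symbols lie under the floor. Dashed lines mark 1.5-fold, which 2 probe sets passed; CFLAR has its brightest above 0 and most of the others below, and scaling on the spike-ins would add 1.19 to every point.

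FADD on chromosome 11 encodes the adaptor that joins FAS and the TRAIL receptors to caspase-8. Its single probe set read 7.86 on the knockout-labelled array against 8.02 in the control, a difference of -0.17 within the spread of 0.388. CASP8 on chromosome 2 encodes the initiator caspase. Its brightest probe set read 7.96 and 7.95, a difference of 0.01, and the next one 6.47 and 6.59 (-0.12). A probe set of CASP8 under the floor read 3.53 and 3.24. Neither gene thus moved beyond the spread in any probe set above the floor.

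CFLAR on chromosome 2 encodes cFLIP, which resembles caspase-8 without its protease activity and is made as long and short forms by splicing. It had the most probe sets of the members, 14, of which 12 were above the floor. The brightest read 8.61 on the knockout-labelled array against 8.25 in the control, a difference of 0.36 within the spread of 0.388. The next brightest read 8.19 and 7.90 (0.29).

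The other 10 CFLAR probe sets that reached the floor on either array, with values of 4.40 to 6.10, did not follow these. They differed by -0.44 to 0.01, with a median of -0.12, and 9 of 10 were lower on the knockout-labelled array, though none would be if the arrays were scaled on the spike-ins. Of the 12, 10 carried a mark for matching several transcripts, the brightest included. The 2 without one read 4.40 and 4.48 on the knockout-labelled array, under the floor, against 4.79 and 4.68 in the control. Their differences of -0.39 and -0.20 are therefore not measured sizes. The direction of CFLAR thus changed with the probe set, and as the mean of its probe sets it differed by -0.07. The SD of the 12 differences was 0.24. The median SD was 0.29 among 22 genes that had 8 or more probe sets over the floor, and 16 of them had a larger one than CFLAR. Which splice form each probe set reads was not analysed here.

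Over all members, 28 of 36 probe sets were above the floor, and 11 of these were higher and 17 lower on the knockout-labelled array. Among all probe sets above the floor 51% were higher. CFLAR supplied 9 of the 17 lower ones. Only the brightest probe sets of TNFRSF1A and TNFRSF10B passed 1.5-fold upward, which 6.25% of all probe sets above the floor did, and none passed it downward, which 11.3% did.

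**Figure D3:**
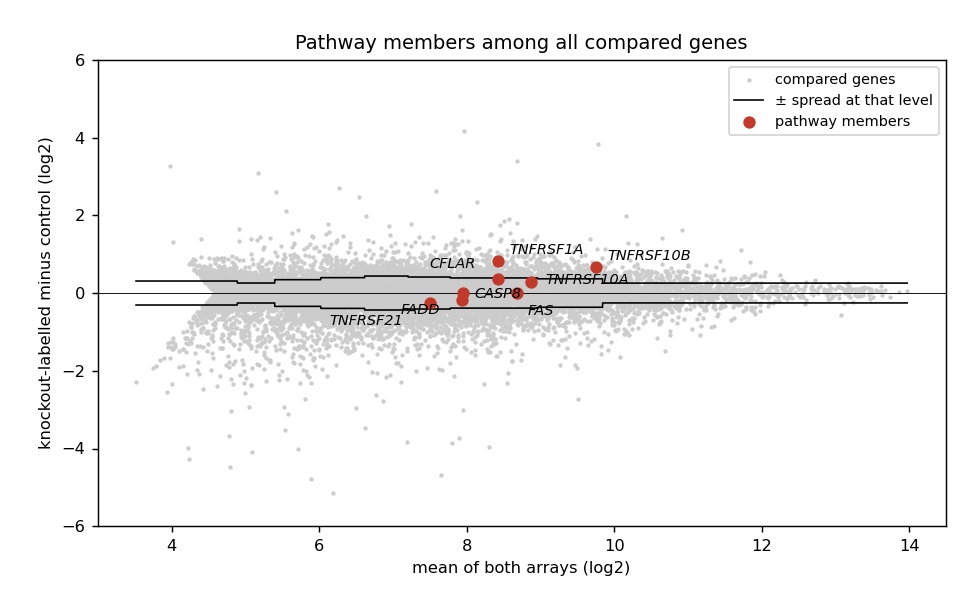
Difference of each compared gene (grey, 12841 genes) against its mean on both arrays, both log2, with the 8 compared members as filled red circles and black lines at plus and minus the spread of genes at that level. TNFRSF1A (0.82) and TNFRSF10B (0.66) lie outside the lines and the other 6 members inside; with the arrays scaled on the spike-ins all points would lie 1.19 higher.

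Other genes of the pathway were taken from 12 lists of ligands, receptors, adaptors and effectors, 113 genes in all, of which 79 were compared. Their median difference was 0.20 against 0.04 for all compared genes, and 57 of 79 (72.2%) lay above 0 against 52.9%. At 1.5-fold 9 were higher and 10 lower, or 11.4% and 12.7%, against 5.83% and 10.5% of all compared genes. The lists were chosen with earlier results of these data known, so these counts describe them only.

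Among 6 other TNF superfamily ligands compared, LTB and TNFSF13B differed most, in opposite directions. LTB, which encodes lymphotoxin beta, read 6.67 on the knockout-labelled array against 8.66 in the control (-1.99). TNFSF13B, the B cell survival factor BAFF, read 5.84 and 4.48, and since the control value lay under the floor it was at least 2.38-fold higher, measured from the floor. EDA reached the floor on the knockout-labelled array alone, at 4.80. The genes of the ligands that act on the members themselves, TNF (4.14 and 4.53) and FASLG (3.99 and 3.90), were under the floor on both arrays, as TNFSF10 was.

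The decoy receptors, which bind TRAIL without a working death domain, differed little. TNFRSF10D read 7.05 on the knockout-labelled array against 7.00 in the control (0.05), with a second probe set at -0.33, and TNFRSF10C read 4.61 and 4.42, at the floor. Of other receptors with a death domain, TNFRSF25 (DR3) was 1.71-fold lower (-0.77) and EDAR, the ectodysplasin receptor, differed by 0.51. All 5 probe sets of TNFRSF25 were below 0, with a mean of -0.40. Only 1 of 9 compared receptors without a death domain passed 1.5-fold, against 16.3% of all compared genes. This was TNFRSF19, known as a Wnt target and stem cell gene. It read 4.82 on the knockout-labelled array against 6.82 in the control (-1.996), and its 3 probe sets had a mean of -1.13. TNFRSF4, with a control value under the floor, was at least 1.25-fold higher, and TNFRSF13C differed by 0.27.

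Of 21 listed genes of TNFR1 complex I and of the enzymes that add or remove its ubiquitin chains, 17 had a probe set and were compared. On the knockout-labelled array 14 of these 17 were higher, against 52.9% of all compared genes. The median of the 17 was 0.19, against 0.04 for all compared genes. Under spike-in scaling the median was 1.38. None of the 17 passed 1.5-fold in either direction, which 16.3% of all compared genes did. CYLD, a deubiquitinase that limits this complex, differed by 0.50 with all 5 probe sets above the floor higher, and IKBKG, the NEMO subunit of the IKK kinase, by 0.49. The adaptor TRAF5 differed by -0.49. TRADD, the adaptor of TNFR1, differed by 0.40, within its spread of 0.412.

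The necroptosis genes stood apart from each other. MLKL, the pore-forming effector that RIPK3 phosphorylates, was 2.56-fold lower in its single probe set, 5.78 on the knockout-labelled array against 7.14 in the control (-1.36). RIPK3 read 5.09 and 4.83 (0.26). CAMK2G, a calcium-dependent kinase, differed by 0.75 and the mitochondrial phosphatase PGAM5 by -0.51. With 4 genes compared, the median of -0.13 lay between these.

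Of the other caspases and BID, 2 of 6 compared genes were higher and 4 lower on the knockout-labelled array. Of all compared genes, 52.9% were higher. The median of the 6 was -0.29, and scaling on the spike-ins put it at 0.89. CASP4, an inflammatory caspase, was 2.09-fold lower, 5.59 on the knockout-labelled array against 6.65 in the control (-1.06), and its second probe set differed by -1.04. CASP2 differed by -0.59 with all 7 probe sets below 0. CASP6, an executioner caspase, differed by -0.50, and by -0.48 in its other probe set. CASP10, the closest relative of CASP8, differed by -0.09, with 2 of 4 probe sets higher and 2 lower. BID, which links caspase-8 to mitochondria, differed by 0.30 in its brightest probe set but by -0.28 as the mean of 3, so that its direction changed with the probe set.

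Among 5 compared inhibitor of apoptosis genes and their antagonists, the mitochondrial protease HTRA2 was 1.57-fold higher (0.65), with both probe sets higher. DIABLO, the mitochondrial antagonist of these inhibitors, differed by 0.36 against a spread of 0.255. BIRC6 differed by -0.27, within its spread. Of 13 other death effector domain and adaptor genes 10 were above 0, against 52.9% of all compared genes, but the largest differences were downward. At 1.5-fold 1 of the 13 was higher and 2 were lower, against 5.83% and 10.5% of all compared genes. FAIM, an inhibitor of FAS-induced death in lymphocytes, was 2.86-fold lower in its single probe set, 7.56 on the knockout-labelled array against 9.08 in the control (-1.52). PEA15, a death effector domain protein that can bind FADD and ERK, was 2.28-fold lower (-1.19), with a second probe set at -0.95. FAF1, a FAS-binding protein, was 1.65-fold higher (0.72), with all 3 probe sets above the floor higher.

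Enzymes that glycosylate TRAIL receptors differed in both directions. GALNT3, which starts O-glycan chains, was 2.61-fold higher, 9.15 on the knockout-labelled array against 7.77 in the control (1.38), in the 1 probe set above the floor. GMDS, an enzyme of GDP-fucose synthesis, differed by 0.59, and C1GALT1C1, the chaperone of the core O-glycan enzyme, by -0.88. Of 5 genes of receptor shedding none passed 1.5-fold, against 16.3% of all compared genes. The largest differences there were 0.58 for RHBDF1, 0.48 for the metalloprotease inhibitor TIMP3 and -0.26 for RHBDF2.

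Transcription factors and cofactors known to act on TNFRSF10B were all higher on the knockout-labelled array, 5 of 5 compared with a median of 0.81. Of all compared genes 52.9% were higher, with a median of 0.04. DDIT3 (CHOP), which binds the TNFRSF10B promoter under endoplasmic reticulum stress, read 10.38 on the knockout-labelled array against 6.99 in the control. ATF3 differed by 0.95 with all 3 probe sets higher, and ATF4 by 0.81. Their part in the TNFRSF10B difference was not tested. SP1 differed by 0.55 in its brightest probe set, but its 4 probe sets did not share a direction and averaged 0.10.

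**Figure D4:**
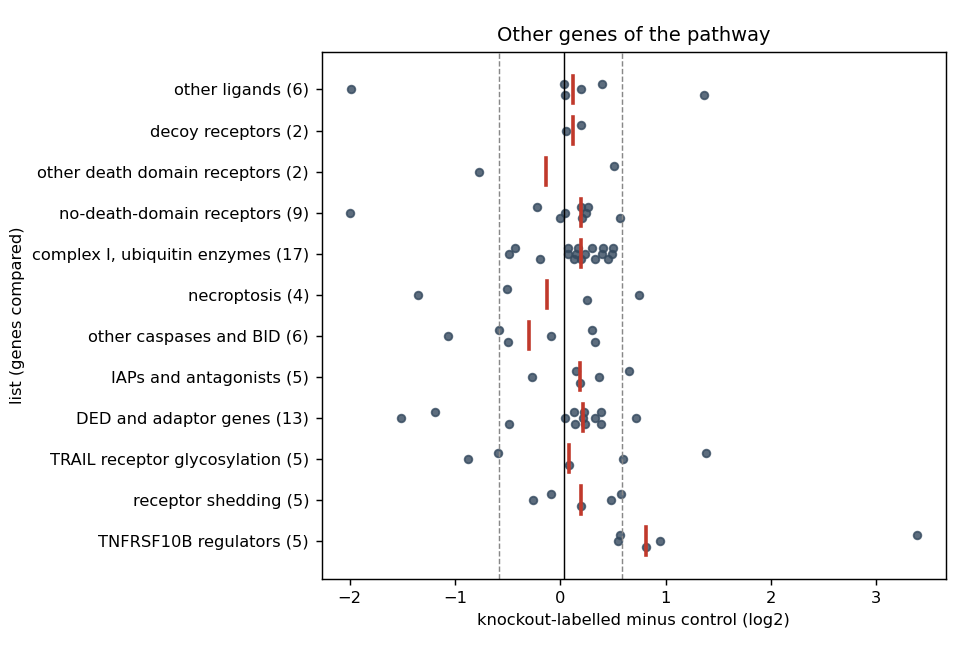
Difference (knockout-labelled minus control, log2) of each compared gene in 12 lists around the death receptors; points are genes, red bars list medians, the solid line the median of all compared genes (0.04) and dashed lines 1.5-fold. LTB, TNFRSF19, FAIM, MLKL, PEA15 and CASP4 lie furthest left and DDIT3 furthest right; scaling on the spike-ins would move every point and median up by 1.19.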

How the data were processed

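Total RNA of 2 HCT15 cultures, 1 per group, was hybridised to 1 Affymetrix array each. The deposited values are log2 expression values, and the authors used RMA (version unstated) to make them, per the submitters' processing notes. Which arrays entered that step together is unstated in the sources used here. RMA compresses differences of dim probe sets. Of 54613 non-control probe sets, 41091 had 1 gene symbol in the platform annotation, 1801 several and 11721 none, and only the first kind was used. Symbols were checked by Entrez identifier against a RefSeq table of assembly GRCh38.p14, and none changed. Differences, spreads and alternatives were computed in Python 3.11.15 with pandas 2.3.3 and statsmodels 0.14.6. The procedure was tested on simulated data with planted differences. Each planted difference was larger than that of any member, so recovery at the members' size was not tested. With 1 array per group no p-value, SD over replicates or interval is given. The fold thresholds are 1.5 and 2. A gene under the floor on 1 array has a bound from the floor.

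The members, lists and the 1.5-fold threshold were chosen with earlier results of these data known. Text names all members, ARID3B, some of the fixed markers, and up to 3 genes per list with the largest difference. TNF, FASLG, TRADD, RIPK3, CASP10, BID and SP1 were added, after their values were seen, for their place in the pathway. Sequences are RefSeq's. The start regions of the 8 members outside chromosome 8 were searched for the motifs, and those of TNFRSF10A and TNFRSF10B on that chromosome were not.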

Additional observations from a re-analysis of the deposited data

How the results depend on the processing

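With 1 array per group, no replicate could be left out. No paired analysis was possible because each group has 1 array. An alternative counted as moving a difference or median when the shift reached the spread of gene differences, and a count when it changed by more than 1.5 times. Over 11 alternatives and 23 results, 215 of 250 values did not move, and 35 did, of which 13 came from alternatives other than spike-in scaling. Part of the 215 was fixed in advance. The brightest probe sets of the compared members lay well above the floor, so changing the floor left their differences as they were. Centring could hardly move them either, since the array medians were 4.589 and 4.591 on the knockout-labelled and the control array. No member past 1.5-fold changed direction. The members' median ranged from -0.17 to 0.14 without spike-in scaling. Signal under the floor of 4.59 gives no measured size, as for TNFSF10.

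The count of members 1.5-fold higher was 1 in place of 2 with the mean of probe sets, with their median, with scaling on ribosomal protein genes and without marked probe sets, the last because TNFRSF1A then had no value. Members above 0 numbered 3 of 8 with the median of probe sets and 2 of 5 without marked ones. CFLAR differed by -0.0715 with the mean of its probe sets, by -0.0743 with their median and by -0.39 without marked ones. Without marked probe sets the list median was -0.59 for TRAIL receptor glycosylation, over 3 genes, and -0.22 for inhibitors of apoptosis, over 2. With a floor at the 75th percentile it was -0.51 for necroptosis, over 3 genes, and -0.90 for other ligands, over 2.

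Scaling on the spike-ins moved all 8 members above 0, with 8 past 1.5-fold, 7 past 2-fold and a median of 1.33. TNFRSF1A then differed by 2.01, TNFRSF10B by 1.85, CFLAR by 1.55, TNFRSF10A by 1.46, CASP8 by 1.19, FAS by 1.19, FADD by 1.02 and TNFRSF21 by 0.93. List medians were 1.31 for other ligands, 1.38 for receptors without a death domain, 1.38 for complex I, 1.06 for necroptosis, 0.89 for caspases and BID, 1.37 for inhibitors of apoptosis, 1.40 for other adaptors, 1.26 for glycosylation, 1.38 for shedding and 2.00 for TNFRSF10B regulators. The median of all compared genes moved to 1.22, so the order of the genes was kept. Why the spike-ins differed was not tested.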

Other observations

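The TRAIL receptor genes lie next to each other on chromosome 8, in the order TNFRSF10B, TNFRSF10C, TNFRSF10D and TNFRSF10A in the RefSeq table, and their differences were 0.66, 0.19, 0.05 and 0.27. CFLAR, CASP10 and CASP8 are neighbours on chromosome 2, in that order among protein-coding genes, and differed by 0.36, -0.09 and 0.01. The control value of TNFRSF10C lay under the floor. The antisense entries of these clusters, TNFRSF10B-AS1 (3.71 on the knockout-labelled array against 3.61 in the control) and CFLAR-AS1 (2.72 and 2.81), were under the floor on both arrays.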
